A study of Bos taurus with 20 samples.

Results

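OAS1Z, RSAD2 and IFIT3 are antiviral effector genes that interferons switch on, and their transcripts were measured here in the endometrium of heifers on day 18 of pregnancy or of the oestrous cycle. They were taken as every clone of the 18KB array whose only symbol in the array's gene table is one of these 3: 1 clone of OAS1Z, 1 of RSAD2 and 8 of IFIT3, or 10 of the 1536 clones and 3 of the 86 genes named by a single symbol. The 4 pregnant Simmental heifers (animals 316, 426, 447 and 448, aged 17 to 20 months) had been inseminated with frozen-thawed semen, and an intact conceptus was found and removed at slaughter. The 6 control heifers (animals 330, 404, 427, 434, 440 and 449, aged 18 to 22 months) had been inseminated with the sperm-free supernatant of semen of the same bull and carried no conceptus. All 10 had been synchronised with the prostaglandin analogue cloprostenol, and tissue came from the caudal horn on the ipsilateral side, between the caruncles. Spotted on the 18KB array is a subtracted library that favours cDNAs upregulated in pregnancy, and the array was hybridised once with a radioactively labelled probe from each animal.

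Before attachment, the trophoblast of cattle secretes interferon tau, a type I interferon that maintains the corpus luteum and acts on the endometrium. It binds the type I interferon receptor, and this turns on the interferon-stimulated genes. OAS1Z belongs to the oligoadenylate synthetases, which on binding double-stranded RNA make short adenylate chains that activate the RNA-degrading enzyme RNase L. RSAD2, also called viperin, is a radical SAM enzyme that in human cells converts a nucleotide into a chain terminator of viral RNA synthesis. IFIT3 is a tetratricopeptide protein that in human cells binds IFIT1 and strengthens its hold on viral RNA ends.

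Intensities are the authors' deposited values, on a linear scale whose background subtraction and scaling are not given in the sources used here, so brightness is given only as a property of the spots, and levels of different transcripts are not compared. Column medians lay between 2.50 and 3.18 in pregnant animals and between 1.39 and 1.90 in controls. The columns of pregnant 426, pregnant 447 and control 427 held no value at or below 0.01, while the other 7 held 9 to 16 such values each. These 3 arrays stand apart at the low end of the scale, and results are therefore also given with them as a block and without them. Fold changes below are pregnant over control, on the log2 scale with the standard error of the limma fit (4 pregnant animals, 6 controls). Calls required a Benjamini-Hochberg adjusted p under 0.01 together with at least a 2-fold difference.

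All 3 genes rose in pregnant endometrium, and for each of them every pregnant animal lay above every control. OAS1Z was 4.94-fold higher, RSAD2 16.4-fold and IFIT3 8.67-fold. Of all 1420 genes and clones without a single symbol on the array, 15.6% were called higher, and in 22.3% every pregnant animal lay above every control. Among the 86 named genes the called share was 77.9%, and per the series design text the clones sequenced were chiefly those found to differ in these same animals. The p-values of the 3 genes are therefore not independent evidence of their direction. In bulk tissue, a change in the number of cells of a type and a change in RNA per cell cannot be told apart.

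The OAS1Z clone had an intensity of 6.56 in pregnant 316, 12.7 in pregnant 426, 8.24 in pregnant 447 and 6.68 in pregnant 448. In controls it was lowest at 1.06 in animal 440, had a median of 1.49 and was highest at 4.24 in animal 427. The groups did not overlap, but control 427 stood well above the other controls, none of which exceeded 1.59. OAS1Z had a mean log2 intensity of 3.04 ± 0.44 in the pregnant group (SD, n = 4) and 0.73 ± 0.69 in the control group (SD, n = 6). The log2 fold change was 2.31 ± 0.35 (95% interval 1.54 to 3.07, limma adjusted p = 0.000498), a fold of 2.90 to 8.42 at the ends of the interval. The lowest pregnant value was 1.55 times the highest control value, and 4.13 times without control 427. Without that animal the log2 fold change was 2.58 ± 0.23.

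The RSAD2 clone had an intensity of 2.19 in pregnant 316, 3.99 in pregnant 426, 4.66 in pregnant 447 and 1.95 in pregnant 448. In controls it was lowest at 0.060 in animal 434, had a median of 0.18 and was highest at 0.56 in animal 427. The groups did not overlap, and the lowest pregnant value was 3.48 times the highest control value, or 6.29 times without control 427. RSAD2 had a mean log2 intensity of 1.58 ± 0.62 in the pregnant group (SD, n = 4) and -2.46 ± 1.13 in the control group (SD, n = 6). The log2 fold change was 4.04 ± 0.54 (95% interval 2.86 to 5.21, limma adjusted p = 0.000176). Values in 5 of the 6 controls lay below 0.32, the 10th percentile of the array, so the size of this fold rests on dim spots. With a floor at that percentile it was 3.09 on the log2 scale, and the gene was still called.

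Averaged over its 8 clones on the log2 scale, IFIT3 had an intensity of 1.36 in pregnant 316, 2.44 in pregnant 426, 3.86 in pregnant 447 and 1.74 in pregnant 448. In controls it was lowest at 0.166 in animal 330, had a median of 0.227 and was highest at 0.597 in animal 427. Animal 330 held a spot at 0.01, in the clone 18KB-16-G06, and was not the lowest control in the other IFIT3 clones. The groups did not overlap, and the lowest pregnant value was 2.27 times the highest control value, or 5.21 times without control 427. IFIT3 had a mean log2 intensity of 1.12 ± 0.65 in the pregnant group (SD, n = 4) and -2.00 ± 0.67 in the control group (SD, n = 6). The log2 fold change was 3.12 ± 0.38 (95% interval 2.29 to 3.94, limma adjusted p = 9.35e-05), or 2.45 when values were first raised to the 10th percentile.

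**Figure D1:**
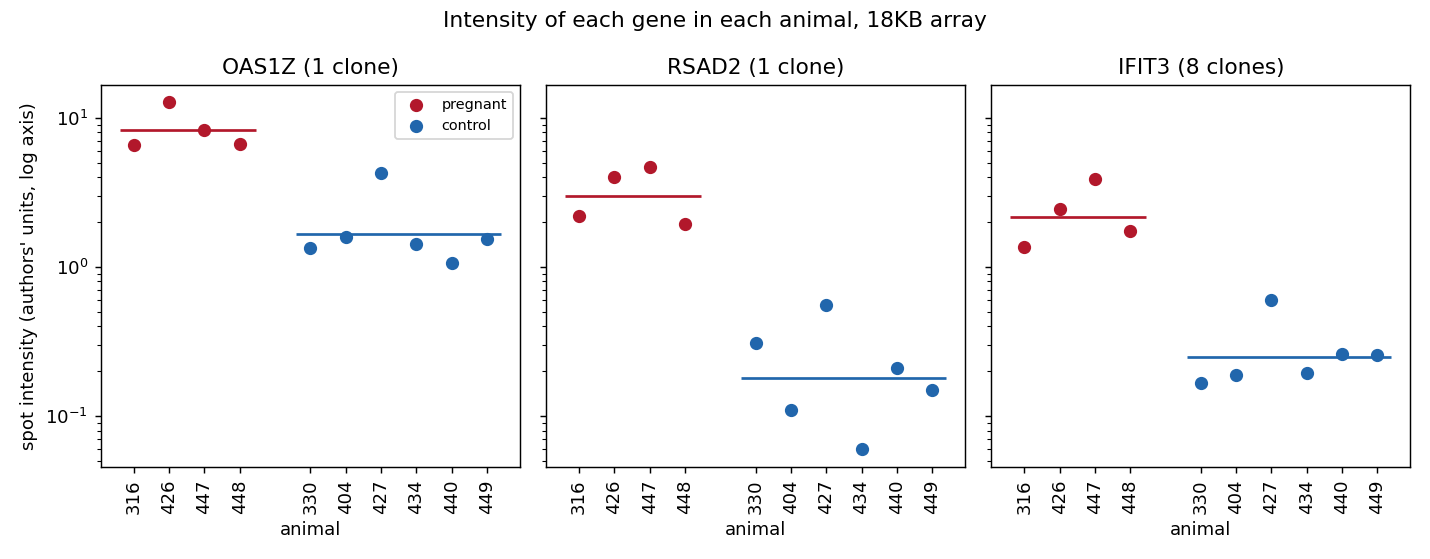
Spot intensity (authors' units, log axis) of OAS1Z, RSAD2 and IFIT3 in each of the 4 pregnant and 6 control animals; points are animals, and lines are the geometric means of the groups. In each panel the 4 pregnant animals lie above the 6 controls, and control 427 is the highest control.

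The clones of IFIT3 all pointed the same way but differed widely in size. Of the 10 clones of the 3 genes 9 were called higher, against 20.5% of all 1536 clones, and in all 10 every pregnant animal lay above every control, against 26.7% of all clones. For IFIT3 these were 7 of 8 clones called and 8 of 8 without overlap. The log2 fold changes of its clones ran from 1.81 to 5.14, with a median of 2.80. These clones share the RNA and the array of each animal and are not replicates.

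The clone with the largest change, 18KB-06-E06, had an intensity of 8.39 in pregnant 316, 13.1 in pregnant 426, 26.2 in pregnant 447 and 10.5 in pregnant 448. In controls it was lowest at 0.25 in animal 434, had a median of 0.305 and was highest at 1.22 in animal 427. Its log2 fold change was 5.14 ± 0.45 (35.2-fold, limma adjusted p = 1.26e-05), and it was also the brightest IFIT3 clone. The second largest was 18KB-14-B06, at 4.79 ± 0.72, with intensities of 1.17 to 5.08 in pregnant animals and 0.030 to 0.46 in controls. Its controls were close to the bottom of the scale, and its log2 fold change was 2.86 under the lowest of the alternatives tried.

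The clone 18KB-06-D07 showed a smaller change with little spread. It ran from 1.84 to 3.84 in pregnant animals and from 0.60 to 0.85 in controls, all above the 10th percentile of the array, and its log2 fold change was 1.98 ± 0.21 (limma adjusted p = 3.04e-05). The clone 18KB-09-F02 had the smallest change, 1.81 ± 0.43. Its lowest pregnant value, 1.05 in animal 448, was 1.07 times its highest control value, 0.98 in animal 427. This call was lost under 12 of 22 alternatives, among them equal column medians (0.98), and without pregnant 426 or 447 or without control 330, 404, 440 or 449.

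The clone 18KB-16-G06 was the one that was not called (log2 fold change 2.82 ± 0.85, limma adjusted p = 0.0214). It ran from 0.58 to 1.46 in pregnant animals and from 0.12 to 0.39 in 5 of the controls, while control 330 lay at 0.01. Without control 330 the log2 fold change was 2.08 and the clone was called. The other 3 clones had values of 3.52 ± 0.45 (18KB-06-C07), 2.79 ± 0.34 (18KB-10-C06) and 2.09 ± 0.27 (18KB-09-E08). Among pregnant animals, 447 was the highest in all 8 IFIT3 clones, and control 427 was the highest control in all 8.

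**Figure D2:**
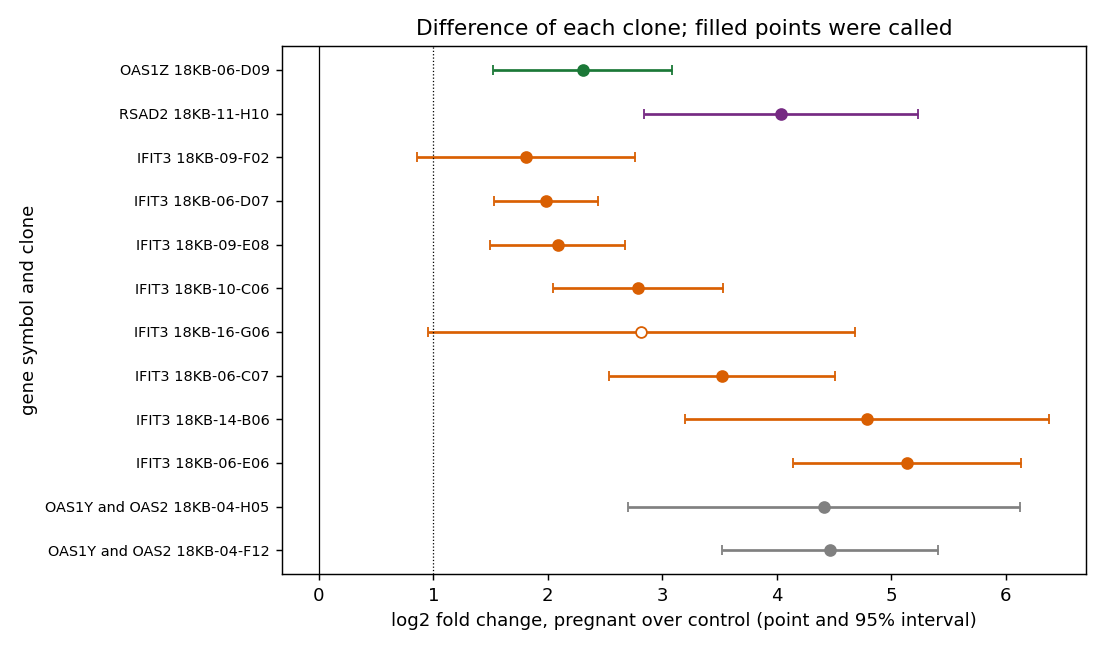
Log2 fold change (pregnant over control, with its 95% interval) of each clone of OAS1Z, RSAD2 and IFIT3, and of the clones listed for OAS1Y and OAS2; open points were not called, and the dotted line marks a fold of 2. The IFIT3 clones spread from 1.81 to 5.14, and 18KB-16-G06 has the widest interval.

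OAS1Z lies in a cluster of related synthetase genes: in the RefSeq annotation of assembly ARS-UCD2.0 its neighbours on one side are OAS1X, OAS1Y and OAS2. A further 2 clones of the 18KB array carry the symbols OAS1Y and OAS2 together and so belong to neither gene alone. The brighter one, 18KB-04-F12, ran from 2.41 to 3.24 in pregnant animals and from 0.070 to 0.44 in controls, and rose by 4.47 ± 0.43 on the log2 scale (limma adjusted p = 2.15e-05). The other, 18KB-04-H05, ran from 0.26 to 0.70 in pregnant animals and from 0.01 to 0.21 in controls and had 4.41 ± 0.78, but it was among the dimmest clones of the array and its log2 fold change was 0.55, which was not called, once values were raised to the 10th percentile. Spotted clones can also bind transcripts of close paralogs, which was not tested for the OAS or the IFIT genes. IFIT3 likewise lies beside IFIT2, with IFIT5 close by, and RSAD2 beside CMPK2, and none of these 3 neighbours has a clone under a single symbol on the array.

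The other effectors on a list of antiviral genes were higher in pregnant animals as well. Of its 29 symbols 8 had a single symbol on the array, and all 8 rose, with a median log2 fold change of 3.17, against 1.85 over the 86 named genes and 0.38 over all genes and clones tested. Besides the 3 genes these were ISG15, a ubiquitin-like modifier (4.85 ± 0.46), the GTPases MX1 (3.40 ± 0.39), MX2 (3.22 ± 0.36) and GBP4 (2.56 ± 0.32), and IFI6, a small membrane protein (2.44 ± 0.21). By these estimates OAS1Z had the lowest fold of the 8, and RSAD2 was exceeded by ISG15 alone; differences between genes were not tested. Of a wider list of 73 symbols of interferon-stimulated genes 24 were measured and all 24 rose, with a median of 2.56, from 1.11 for PLSCR2 to 4.85 for ISG15. Among the other 21, 12 had a larger fold change than OAS1Z, 5 than IFIT3 and 2 (ISG15 and UBA7) than RSAD2. These counts and the places among the 8 are those of the values as deposited, with the clones of a gene averaged. For RSAD2 they rest on dim spots, with 5 of the 6 controls below the 10th percentile of the array. For IFIT3 they rest on the clones used, whose log2 fold changes ran from 1.81 to 5.14. Named genes outside the interferon-stimulated list were called higher in 69.4% of cases.

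**Figure D3:**
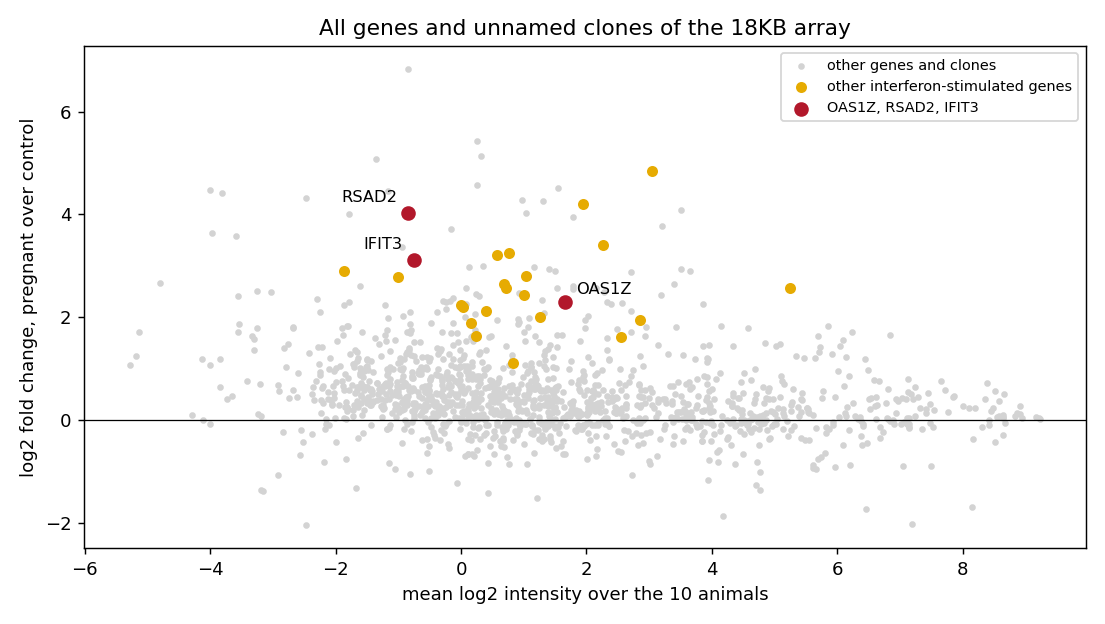
Log2 fold change (pregnant over control) against mean log2 intensity over the 10 animals for all 1420 genes and clones without a single symbol. RSAD2 (4.04), IFIT3 (3.12) and OAS1Z (2.31) are labelled, and all 3 lie above the median log2 fold change of 0.38.

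Levels also differed within each group. Among pregnant animals, RSAD2 and IFIT3 were highest in 447 and OAS1Z in 426, and the lower values of all 3 genes were those of 316 and 448. This order is that of the values as deposited. The columns of 426 and 447 also had the higher medians over all clones (3.045 and 3.18, against 2.495 in 316 and 2.71 in 448). The mean log2 level of 426 and 447 corresponded to 1.54 times that of 316 and 448 for OAS1Z, 2.09 times for RSAD2 and 2.00 times for IFIT3, against a median of 1.25 times over all genes and clones. With equal column medians these were 1.29, 1.74 and 1.67 times, against 1.04 times. The pairs of animals match the order of these same 3 genes, so the ratios are no evidence apart from that order. Over the interferon-stimulated list, which holds the 3 genes, the median was 1.55 times as deposited and 1.29 times with equal column medians. Animal 447 was the highest pregnant animal in 17 of the 24 interferon-stimulated genes and 426 in the other 7, and over all clones 447 was highest in 46.2% and 426 in 30.5%. Both are among the 3 arrays without values at or below 0.01.

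Control 427 was the highest control for all 3 genes. It lay above the mean of the other 5 controls by 3.07 times for OAS1Z, 3.86 times for RSAD2 and 2.83 times for IFIT3, against a median of 1.21 times over all genes and clones. With equal column medians these were 2.50, 3.14 and 2.31 times, against 0.984 times. With values raised to the 10th percentile they were 3.07, 1.75 and 1.63 times, against 1.15 times, so that for RSAD2 and IFIT3 the size of this excess rests on dim spots in the other controls. It was the highest control in 22 of the 24 interferon-stimulated genes and in 44.2% of all clones. Over those 24 genes, its median excess was 2.49 times as deposited. With equal column medians it was 2.02 times, and with values raised to the 10th percentile 2.09 times. Control 427 is one of the 3 arrays without values at or below 0.01, and the part of that in these results was not tested beyond the following values. With those 3 arrays as a block, a step chosen after seeing the data, the log2 fold changes were 1.95 ± 0.23 for OAS1Z, 3.55 for RSAD2 and 2.71 ± 0.22 for IFIT3. Within the other 7 arrays alone (2 pregnant, 5 control) they were 2.26, 3.83 and 2.87, and within the 3 (2 pregnant, 1 control, no test) 1.27, 2.94 and 2.36. All 3 genes were called both with the block and within the 7 arrays, and of their 10 clones 9 were called with the block and 8 within the 7 arrays.

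Transcripts of the trophoblast, the source of interferon tau, were compared with these levels animal by animal. IFNT2, an interferon tau gene, had a mean intensity of 0.586 in pregnant 316, 2.86 in pregnant 426, 1.59 in pregnant 447 and 6.95 in pregnant 448, against 0.377 to 0.683 in controls. As deposited, the animal with the most IFNT2 signal, 448, had the lowest RSAD2 value of the 4, and the animal with the least, 316, had the lowest OAS1Z and IFIT3 values. In 316 and 448 the values were 2.19 and 1.95 for RSAD2, 6.56 and 6.68 for OAS1Z, and 1.36 and 1.74 for IFIT3. The orders of RSAD2 and OAS1Z thus rest on small margins of 1 clone each, with no allowance for the column medians of 2.495 and 2.71. In 316 IFNT2 lay within the control range only through control 427 (0.683), and the next highest control was at 0.491. OAS1Z, RSAD2 and IFIT3 in 316 lay above every control. The conceptus had been removed, and a relation of the 3 genes to the trophoblast signal was not tested. IFNT2 was called (2.16 ± 0.52, limma adjusted p = 0.00797), as was TKDP1, a Kunitz domain protein of the trophoblast (3.14 ± 0.78, adjusted p = 0.00921), while its relative TKDP4 was not (2.31 ± 0.74, adjusted p = 0.0326). Pregnant and control values overlapped in all 3 trophoblast genes, and the calls of IFNT2 and TKDP1 were lost under 18 and 19 of 25 alternatives. The overlap rested on control 427. Without that animal the lowest pregnant value was 1.19 times the highest control value for IFNT2, 1.39 times for TKDP1 and 1.06 times for TKDP4. The summed level of the 3 measured trophoblast markers of 12 listed (IFNT2, TKDP1 and TKDP4) ran from 1.44 to 41.7 in pregnant animals and from 0.955 to 1.79 in controls. Of the spot values behind these means, 1 of TKDP1 and none of IFNT2 or TKDP4 was at or below 0.01.

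**Figure D4:**
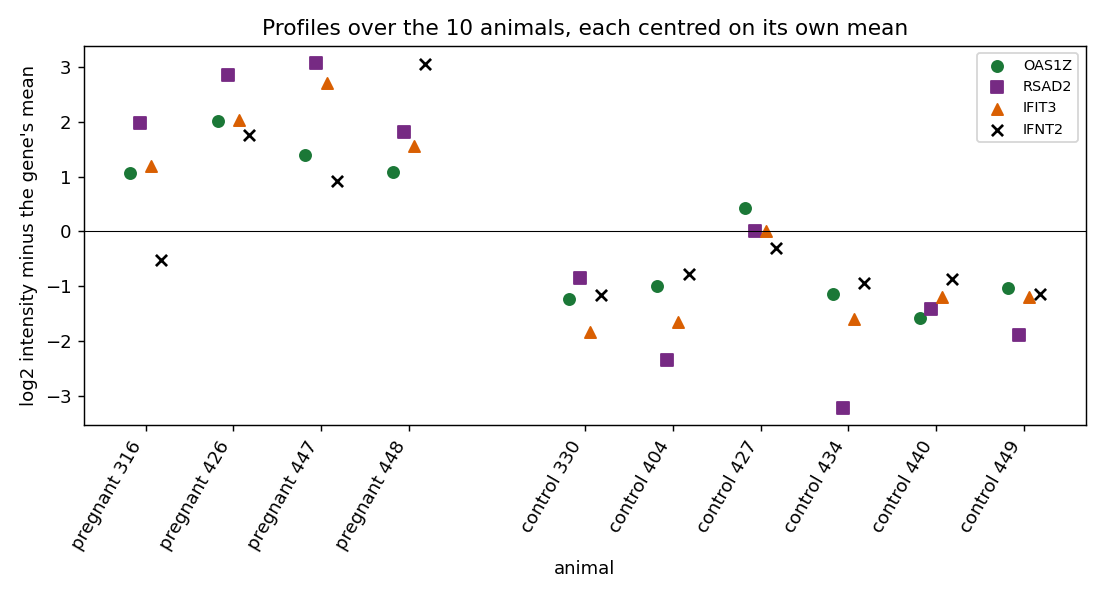
Log2 intensity minus the gene's own mean over the 10 animals, for OAS1Z, RSAD2, IFIT3 and the interferon tau gene IFNT2. The 3 antiviral genes are above their mean in all 4 pregnant animals and IFNT2 is not in pregnant 316, while control 427 lies above the other controls in all 4 genes.

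Levels of the markers of other cell types also differed between the groups, and their part in the results was not tested. The sum of the 3 measured stroma markers of 9 listed (COL1A1, COL1A2 and COL3A1, collagen chains) ran from 107 to 436 in pregnant animals and from 622 to 1415 in controls. CD74, the 1 measured leukocyte marker of 8 listed, ran from 13.1 to 19.7 in pregnant animals and from 4.86 to 8.12 in controls. The clones sequenced were chiefly those found to differ in these animals, so these few markers are no measure of cell numbers. None of the 6 epithelial, 5 smooth muscle or 3 endothelial markers listed has a single-symbol clone on this array, so the labelled tissue could be checked against few of its defining genes.

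Likeness of pattern was measured over the 10 animals as the root mean square difference between log2 profiles, each centred on its own mean, among 85 other named genes. Closest to OAS1Z were LGALS9, which encodes galectin-9 (0.25), IFIH1, a cytoplasmic sensor of viral RNA (0.29), and USP18, a protease that removes ISG15 from proteins (0.33). Closest to IFIT3 were MX2 (0.19), XAF1, a pro-apoptotic protein (0.28), and the locus LOC511531 (0.31). RSAD2 had no neighbour as close: UBA7, the activating enzyme of ISG15 (0.66), RIGI, a sensor of viral RNA (0.70), and DKK1, a secreted Wnt antagonist (0.71), came first. RSAD2 is 1 clone with 5 of the 6 controls below the 10th percentile of the array. Without control 427 its control SD on the log2 scale was 0.90, against 0.23 for OAS1Z and 0.29 for IFIT3. The part of this spread in its distances was not tested. Between the 3 genes the difference was 0.58 for OAS1Z and IFIT3, 0.78 for RSAD2 and IFIT3 and 1.10 for OAS1Z and RSAD2. The measure counts the size of the pregnancy difference as well as the order of the animals.

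Scaling changed the size of the 3 differences but not their direction. Over all 1536 clones the median log2 fold change was 0.44 as deposited and -0.39 with equal column medians. Of 326 called clones 315 were higher and 11 lower as deposited, against 152 higher and 174 lower of 326 with equal column medians and 178 higher and 139 lower of 317 after quantile normalization. With equal column medians OAS1Z had a log2 fold change of 1.48, RSAD2 3.21 and IFIT3 2.29, and with the log2 medians of clones outside the named genes set equal they had 1.87, 3.60 and 2.68. Each was called under every alternative that could give a value.

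**Figure D5:**
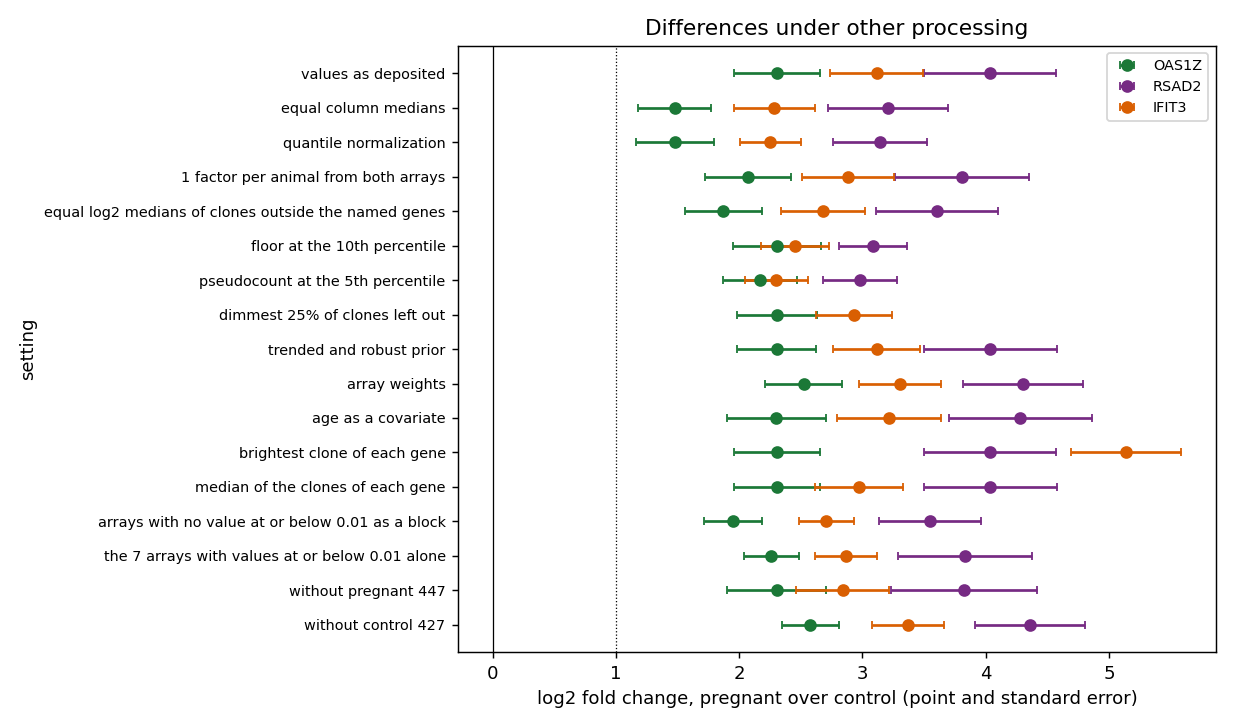
Log2 fold change (pregnant over control) of OAS1Z, RSAD2 and IFIT3 with standard errors, for the values as deposited and for other processing; filled points were called, and the dotted line marks a fold of 2. OAS1Z ranges from 1.48 upward, and the brightest clone of IFIT3 alone gives 5.14.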

How the data were processed

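The deposited values are spot intensities of 33P-labelled cDNA on spotted clones; an animal's probe met both arrays in one vial, per the labels, and background correction and scaling by the authors are not given in the sources used here. Values under 0.01 were set to 0.01 before taking log2. Clones were named through a gene table of the platform, possibly outdated, which gives 202 of 1536 clones 1 symbol, 9 several and 1325 none. By gene identifier 84 of 86 genes have the same symbol in the RefSeq table of ARS-UCD2.0; OAS1Z, RSAD2 and IFIT3 are among them (gene IDs 519922, 506415 and 509678). No genome coordinates or sequences are given, because no source used here names a build. Lists were matched by symbol alone.

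Clones of a gene were averaged per animal. Gene means and the clones without a single symbol (1420 features), and separately all 1536 clones, were fitted with lmFit and eBayes of limma 3.58.1 in R 4.3.3, with Benjamini-Hochberg adjustment over the whole table; the threshold follows the series' design text (fold 2, false discovery rate 1%). The code was tested on simulated data. No columns were identical, and log2 columns of a group correlated at 0.935 to 0.982. Unmapped columns of per-sample values numbered 0. Replicates are separate animals, whose number limits the precision. The members, lists and naming rule were chosen with earlier results of these data known. The rule named all clones of the 3 genes, the measured antiviral effectors, the 3 most alike genes of each and the trophoblast markers; PLSCR2, CD74 and the collagens were named after their values were seen. Alternatives covered scaling, the floor, dim clones, the prior, array weights, age, the choice of clones, the thresholds and each animal left out, and 2 handlings of the arrays without low values were chosen after seeing the data. Figures used matplotlib 3.10.9.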

Additional observations from a re-analysis of the deposited data

Results flagged for a closer look

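In 58 groups of 4 or 6 animals, those behind the genes and clones named above, the distance of the highest or lowest animal from its nearest neighbour was set against the group's range on the log2 scale. Chance flags about 1 in 20 independent groups. These groups are not independent, since they share the same 10 animals, hold IFIT3 beside its own clones and include genes named for profiles like those of the 3 genes, so their number is not set against that share. Of the 58, 17 stood apart, all among controls. Pregnant groups held 4 animals and control groups 6, so the lack of flags among pregnant animals is no measure of their spread. In 16 of the 17 it was control 427 that stood apart, as the highest. At the gene level its intensity was 4.24 for OAS1Z (next control 1.59), 0.597 for IFIT3 (next 0.261), 8.52 for ISG15 (next 1.93), 5.52 for MX1 (next 2.07), 1.53 for MX2 (next 0.623), 1.68 for IFI6 (next 1.06), 1.60 for USP18 (next 0.782), 3.51 for UBA7 (next 1.25), 1.73 for RIGI (next 0.648), 0.54 for XAF1 (next 0.23) and 0.401 for TKDP1 (next 0.245). Among clones it was 0.85 for 18KB-06-D07, 1.22 for 18KB-06-E06 and 0.65 for 18KB-10-C06, all of IFIT3, and 0.44 for 18KB-04-F12 and 0.21 for 18KB-04-H05, both listed for OAS1Y and OAS2. RSAD2 did not stand apart in this way in control 427 (0.56, next 0.31). The remaining one was control 330, the lowest at 0.01 for the IFIT3 clone 18KB-16-G06, with the next control at 0.12.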

How the results depend on the processing

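OAS1Z kept its direction and call under 25 of 25 alternatives, with log2 fold changes of 1.48 to 2.58, IFIT3 under 25 of 25 (2.25 to 5.14) and RSAD2 under 24 of 24 (2.98 to 4.36); leaving out 1 animal gave 2.10 to 2.58 for OAS1Z, 2.84 to 3.37 for IFIT3 and 3.72 to 4.36 for RSAD2. No result named here reversed. The value of IFIT3 depended most on which clones were used: 5.14 from the brightest alone, 2.97 from the median of the clones in each animal. Leaving out the dimmest 25% of clones removed RSAD2 and 4 of the 8 IFIT3 clones, so that 5 member clones were called, all 5 that were left. Calls of 18KB clones numbered 326, against 598 at an adjusted p under 0.05 with no fold threshold and 150 at a fold of 4. Calls of genes and clones without a single symbol numbered 230, against 479 and 82 under those thresholds, and 143 within the 7 arrays with values at or below 0.01. With the 86 named genes fitted and adjusted alone, 78 of them were called, against 76 of the same 86 in the fit of all features. Low signal limits the folds of RSAD2 and of the dim IFIT3 clones, since most control values lay below the 10th percentile of the array (0.32). No paired analysis was possible because pregnant and control animals share no number, and the 3 genes have no clone on the other array, on which the same animals were measured.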

Other observations

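On the linear scale, the mean pregnant intensity minus the mean control intensity was 6.67 for the OAS1Z clone, 2.96 for the RSAD2 clone and 0.652 to 14.1 for the 8 IFIT3 clones. The IFIT3 clone with the smallest log2 change, 18KB-09-F02, did not have the smallest linear difference (1.53, against 0.652 for 18KB-09-E08), so the order of the clones depended on the scale. Without 18KB-06-E06, the brightest, the mean log2 fold change of the other 7 was 2.83.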
